A study of Homo sapiens with 14 samples.

Results

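The 10 genes described here encode mitotic kinases, spindle checkpoint proteins and partners of both: AURKA, AURKB, PLK1, BUB1, BUB1B, TTK, MAD2L1, CDC20, TPX2 and ASPM. They were chosen by name, as the rows of the deposited tables that carry these symbols. All 10 were found among 28120 genes in the table of read counts and among 25447 genes in the table of RPKM values (reads per kilobase of gene and library total), and all 10 passed the expression filter together with 15181 genes in all. The RNA came from PANC-1, an established human pancreatic cancer line of epithelial origin, so that all groups share 1 line and its mutations. Cells were given proanthocyanidins (PA, plant polyphenols) at 20 μg/ml for 3, 12 or 24 h, or the solvent DMSO for 0, 3, 12 or 24 h, with 2 libraries in each of these 7 groups. Libraries held 26403984 to 35213154 reads in genes. The sources used here do not say whether the 2 libraries of a group came from separate cultures, and p-values therefore reflect the spread between libraries, which may be technical. The summed level of 5 markers of the line (KRT8, KRT18, KRT19, KRT7 and VIM) was 8807 to 23483 CPM (counts scaled to a common library total) in PA libraries and 7082 to 8135 CPM in DMSO libraries. KRT7 was by far the lowest of these markers, at 6.30 to 21.0 CPM over all libraries. The sums of 5 fibroblast, 4 leukocyte and 5 endothelial markers were at most 28.97, 5.43 and 1.30 CPM, with COL1A1, CD14 and KDR the highest of each. The fibroblast sum was 25.9 to 28.97 CPM with PA against 23.2 to 26.98 CPM with DMSO at 3 h, 22.8 to 23.4 CPM with PA against 8.27 to 10.7 CPM with DMSO at 12 h, and 20.4 to 20.5 CPM with PA against 12.7 to 13.5 CPM with DMSO at 24 h. COL1A2, DCN, LUM and PDGFRB were at most 0.222 CPM in every library. The leukocyte sum was 1.80 to 5.43 CPM with PA against 0.931 to 2.06 CPM with DMSO. The part of these markers in the results was not tested; PTPRC, CD3E and LYZ were at most 0.277 CPM in every library.

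AURKA, PLK1 and AURKB are serine/threonine kinases that act in turn as a cell divides. AURKA, switched on and brought to microtubules by TPX2, matures the centrosomes and builds the spindle, PLK1 acts at centrosomes, kinetochores and the midzone, and AURKB corrects wrong attachments between chromosomes and microtubules as the catalytic subunit of the chromosomal passenger complex. The spindle checkpoint holds the cell in metaphase while any kinetochore is unattached. TTK, also known as MPS1, starts the signal and recruits BUB1, and MAD2L1 and BUB1B, also known as BUBR1, then bind CDC20 so that the anaphase promoting complex cannot be activated. Once the signal is silenced, CDC20 activates that complex, which marks securin and cyclin B for destruction. ASPM holds microtubule minus ends together at the spindle pole. The transcripts of these genes are known to rise in G2 and mitosis under FOXM1, B-MYB and the MuvB core, which reads a promoter element called the cell cycle homology region (CHR), often near CCAAT boxes bound by NF-Y. In a population of cells, fewer cells in G2 or mitosis and less RNA per cell cannot be told apart.

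The promoters of 5 of these genes are shown because they first passed the test given below, as lower with PA, at different times. In the fit without correction ASPM did so at 3 h, BUB1 and BUB1B at 12 h, and PLK1 and CDC20 at 24 h. The call of ASPM at 3 h did not hold with any library of that time left out. With a correction for GC content and transcript length, given further on, PLK1 and CDC20 passed at 12 h too. Each line gives 140 bases before and 30 bases after the transcription start in RefSeq (GRCh38.p14), read along the gene's strand from 5′ to 3′. Capitals mark the CHR motifs TTTGAA and TTCGAA and the NF-Y motif CCAAT, on either strand, so that TTCAAA and ATTGG are the same motifs read from the other strand. No marked motif overlaps another. The windows lie at chr1:197146640-197146809 on the minus strand, chr2:110678034-110678203 on the minus strand, chr15:40160929-40161098 on the plus strand, chr16:23678749-23678918 on the plus strand and chr1:43358841-43359010 on the plus strand.
ASPM: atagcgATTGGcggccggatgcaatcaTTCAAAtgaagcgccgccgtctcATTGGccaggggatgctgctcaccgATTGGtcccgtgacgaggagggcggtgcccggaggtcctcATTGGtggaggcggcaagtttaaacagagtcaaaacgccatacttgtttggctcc
BUB1: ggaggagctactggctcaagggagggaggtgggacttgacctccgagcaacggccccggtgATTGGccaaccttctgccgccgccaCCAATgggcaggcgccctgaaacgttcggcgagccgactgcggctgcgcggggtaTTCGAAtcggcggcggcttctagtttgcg
BUB1B: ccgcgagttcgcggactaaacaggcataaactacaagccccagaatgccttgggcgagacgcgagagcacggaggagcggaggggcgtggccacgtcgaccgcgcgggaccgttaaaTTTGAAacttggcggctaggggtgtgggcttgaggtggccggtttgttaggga
PLK1: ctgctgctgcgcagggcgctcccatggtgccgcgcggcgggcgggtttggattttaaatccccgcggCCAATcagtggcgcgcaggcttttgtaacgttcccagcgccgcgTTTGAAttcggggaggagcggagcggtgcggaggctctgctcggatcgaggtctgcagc
CDC20: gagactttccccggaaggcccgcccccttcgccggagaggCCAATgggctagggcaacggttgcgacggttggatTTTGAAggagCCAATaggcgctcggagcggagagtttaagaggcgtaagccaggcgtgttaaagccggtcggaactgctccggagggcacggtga

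RefSeq promoter windows of 300 bases (250 before to 50 after the start) were at hand for 7 of the 10 genes, those above with MAD2L1 and AURKB, which had 2 overlapping windows. A CHR motif was found in 6 of the 7, against 16.4% of all 35116 human windows of that length, and a CCAAT motif in 6 of the 7, against 34.6%. Both were found in 5 of the 7, against 6.38%. PLK1 had its CHR 29 bases and its CCAAT 73 bases before the start, and in CDC20 a CHR 65 bases before the start lay between CCAAT motifs 100 and 55 bases before it. BUB1B had a CHR 23 bases before the start and no CCAAT match, and BUB1 had a CHR at base 2 after the start with CCAAT motifs 79 and 54 bases before it. ASPM had 4 CCAAT motifs, at 134, 90, 65 and 25 bases before the start, and 3 or more were found in 3.26% of all windows. Its CHR lay 113 bases before the start. MAD2L1 had a CHR at base 25 after the start, and AURKB had a CCAAT motif, 153 or 129 bases before the start by the window used, and no CHR match. A further CHR of CDC20, 178 bases before the start, lies outside the printed stretch. In the fit without correction, CHR motifs were thus found in genes first called lower at 3 h (ASPM alone), at 12 h and at 24 h. AURKB, also first called at 24 h, had none. These are matches of letters only, and no binding was measured.

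**Figure D1:**
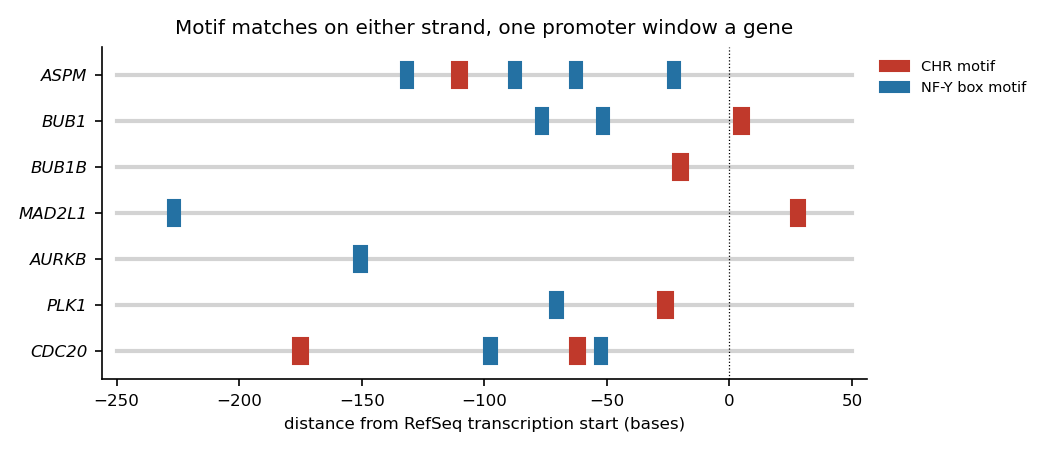
Positions of CHR motifs (red) and NF-Y box motifs (blue) on either strand in a promoter window of each of 7 genes (for AURKB the one with its motif 153 bases before the start), by distance from the RefSeq start in bases. Genes are ordered from ASPM to CDC20, and AURKB and BUB1B are the 2 with 1 kind of motif only.

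Before exposure, levels differed widely between the 10 genes. On the deposited RPKM scale, which takes gene length into account, TPX2 was the highest with 291 ± 5.71 RPKM (SD, n = 2) in DMSO libraries at 0 h. The kinases AURKA with 98.3 ± 4.72 and AURKB with 85.1 ± 5.09 RPKM came next, and then CDC20 with 66.1 ± 4.07 RPKM. PLK1 with 56.2 ± 2.43, BUB1 with 53.5 ± 5.26 and BUB1B with 52.8 ± 1.49 RPKM were close to each other. TTK stood at 20.2 ± 1.09, ASPM at 13.8 ± 2.43 and MAD2L1 at 9.04 ± 0.834 RPKM. The lowest gene of the set was thus the checkpoint effector MAD2L1, and the activator of AURKA had a higher level per length than AURKA itself, 291 against 98.3 RPKM. After 24 h the order had changed: with PA, TPX2 still led with 65.0 ± 0.764 RPKM, followed by AURKB with 52.4 ± 5.61 and CDC20 with 20.8 RPKM in both libraries, while AURKA stood at 19.3 ± 0.403 and PLK1 at 16.7 ± 1.91 RPKM. ASPM was the lowest with 0.755 ± 0.488 RPKM. In DMSO libraries at 24 h AURKB stood at 89.2 ± 0.615 RPKM, next to AURKA with 81.2 ± 0.629.

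The comparison of PA with DMSO at each time asked when and how strongly each transcript moved. At 3 h, 1 of the 10 genes was lower with PA and none was higher, while 1.58% of all genes tested were lower and 1.72% moved either way (edgeR quasi-likelihood test, Benjamini-Hochberg adjusted p under 0.05 over all genes). At 12 h, 7 of the 10 were lower, against 24.1% of all genes lower and 48.5% called either way. At 24 h all 10 were lower, against 27.5% lower and 54.6% either way. The median log2 change of the 10 was -0.88 at 12 h and -1.69 at 24 h, while the median of all genes tested was -0.01 at 3 h, 0.01 at 12 h and -0.01 at 24 h. The PA values were below every DMSO value of that time for 4 of the 10 genes at 3 h, where 27.9% of all genes did so, for 7 at 12 h (37.8%) and for 10 at 24 h (40.0%). At 3 h, 4 other genes of the 10, AURKB, PLK1, CDC20 and TPX2, had both PA libraries above both DMSO libraries, as 26.7% of all genes did, and none of them passed the test.

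**Figure D2:**
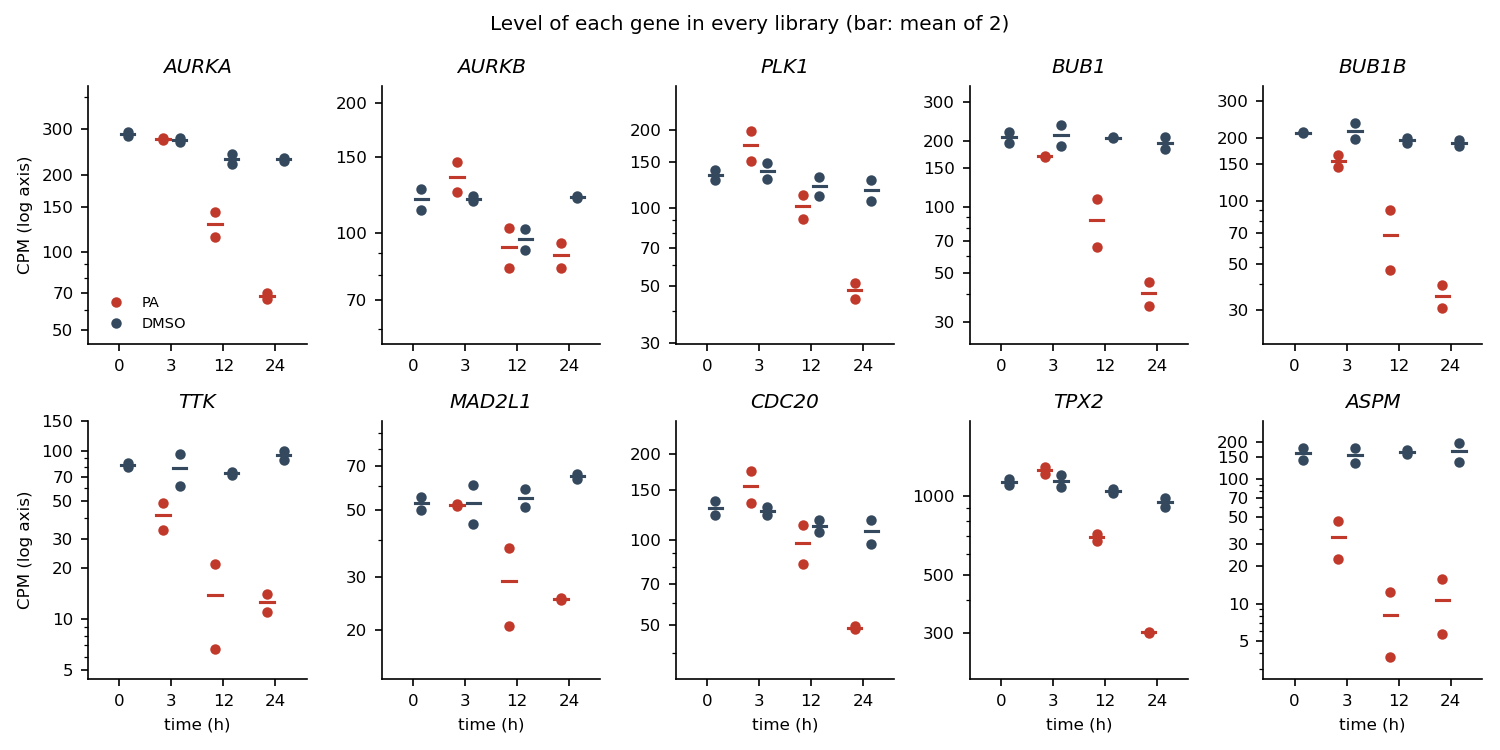
CPM (log axis) of each gene in each library against time, PA in red left of DMSO in dark blue, with a bar at the mean of 2 libraries. The PA points of ASPM are below those of DMSO from 3 h on, and those of AURKB are both below the DMSO points only at 24 h.

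The steepest and earliest fall was that of ASPM, the minus-end protein of the spindle pole. ASPM (ENSG00000066279.15) is on chromosome 1 from 197084128 to 197146694, minus strand (GRCh38, GENCODE 29), and its longest transcript has 28 exons and 10887 nt. At 3 h ASPM had 22.9 and 45.7 CPM in PA libraries, against 135 and 179 CPM in DMSO libraries. The groups did not overlap, and ASPM fell by 2.19 ± 0.48 on the log2 scale, which is 4.58-fold lower (adjusted p = 0.0347). Leaving out any 1 of these 4 libraries kept the direction but ended the call, with log2 values of -1.78 without PA replicate 1, -2.78 without PA replicate 2, -2.38 without DMSO replicate 1 and -1.98 without DMSO replicate 2, and adjusted p-values of 0.0542 to 0.547. At 12 h ASPM had 3.71 and 12.3 CPM in PA libraries, against 173 and 160.3 CPM in DMSO libraries, and fell by 4.38 ± 0.54 (adjusted p = 6.26e-05), or 20.8-fold. At 24 h it had 15.7 and 5.65 CPM in PA libraries, against 138 and 196 CPM in DMSO libraries, and fell by 3.97 ± 0.53 (adjusted p = 5.99e-05). The PA libraries of a time differed widely from each other, and the 12 h value was -3.76 without PA replicate 1 and -5.49 without PA replicate 2. The PA effect on ASPM at 24 h minus that at 12 h was 0.41 ± 0.68 and did not pass (adjusted p = 0.91).

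Among the checkpoint genes, TTK, the kinase that starts the signal, had the largest falls, second to ASPM among the 10 at 12 and 24 h. TTK (ENSG00000112742.8) is on chromosome 6 from 80003887 to 80042527, plus strand. At 3 h TTK had 33.6 and 49.0 CPM in PA libraries, against 61.4 and 95.6 CPM in DMSO libraries, with no overlap, but the change of -0.93 ± 0.37 did not pass (adjusted p = 0.235). At 12 h it had 6.62 and 21.4 CPM in PA libraries, against 75.0 and 71.9 CPM in DMSO libraries. The PA libraries differed from each other by more than the DMSO libraries did, and TTK fell by 2.39 ± 0.39 (adjusted p = 0.000394), with -1.78 without PA replicate 1 and -3.47 without PA replicate 2. At 24 h the PA libraries were close to each other, with 14.2 and 11.1 CPM in PA libraries, against 87.6 and 100.1 CPM in DMSO libraries, and TTK fell by 2.89 ± 0.40 (adjusted p = 7.23e-05), or 7.43-fold.

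BUB1 and BUB1B, the paralogous kinase and pseudokinase of the kinetochore, moved side by side. BUB1 (ENSG00000169679.13) is on chromosome 2 from 110637698 to 110678114, minus strand, and BUB1B (ENSG00000156970.11) is on chromosome 15 from 40161023 to 40221136, plus strand. At 3 h BUB1 had 170.0 and 169 CPM in PA libraries, against 190.2 and 237 CPM in DMSO libraries, and BUB1B had 145 and 167 CPM in PA libraries, against 197 and 237 CPM in DMSO libraries. Neither change passed, at -0.33 ± 0.20 for BUB1 (adjusted p = 0.402) and -0.48 ± 0.23 for BUB1B (adjusted p = 0.306), although both PA libraries of each gene were below both DMSO libraries. At 12 h BUB1 had 65.9 and 109 CPM in PA libraries, against 205 and 208 CPM in DMSO libraries, and fell by 1.24 ± 0.20 (adjusted p = 0.000428). BUB1B had 46.5 and 90.6 CPM in PA libraries, against 201 and 190.3 CPM in DMSO libraries, and fell by 1.51 ± 0.24 (adjusted p = 0.000307). For both genes PA replicate 1 was the lower of the PA libraries. Without it the 12 h values were -0.93 for BUB1 and -1.11 for BUB1B, and without PA replicate 2 they were -1.65 and -2.07. At 24 h BUB1 had 45.3 and 35.6 CPM in PA libraries, against 207 and 183 CPM in DMSO libraries, and BUB1B had 39.3 and 30.8 CPM in PA libraries, against 197 and 184 CPM in DMSO libraries. BUB1 fell by 2.27 ± 0.21 (adjusted p = 5.16e-06) and BUB1B fell by 2.44 ± 0.24 (adjusted p = 7.91e-06), which are 4.82-fold and 5.44-fold. The ratio of BUB1B reads to BUB1 reads stayed between 0.706 and 0.985 in the 6 PA libraries and between 0.913 and 1.08 in the 8 DMSO libraries. Within each time both PA ratios were below both DMSO ratios. They were 0.852 and 0.985 against 1.04 and 1.0 at 3 h, and 0.706 and 0.831 against 0.977 and 0.913 at 12 h. At 24 h they were 0.867 and 0.866 against 0.952 and 1.01, and no test of the ratio was run. A same-strand readthrough gene, BUB1B-PAK6, shares 172 exon bases with BUB1B, and had at most 17 reads of its own in any library.

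MAD2L1, the protein that changes shape at unattached kinetochores to capture CDC20, passed the test at 12 and 24 h, but its 12 h call was not kept under the correction for GC content and transcript length. MAD2L1 (ENSG00000164109.12) is on chromosome 4 from 120055608 to 120067074, minus strand. At 3 h MAD2L1 had 52.3 and 51.8 CPM in PA libraries, against 45.1 and 60.8 CPM in DMSO libraries, so that the PA values lay within the DMSO range (adjusted p = 0.965). At 12 h it had 20.7 and 37.4 CPM in PA libraries, against 51.1 and 58.9 CPM in DMSO libraries, and at 24 h 25.1 and 25.7 CPM in PA libraries, against 66.0 and 63.5 CPM in DMSO libraries. The groups were apart at both times. MAD2L1 fell by 0.92 ± 0.22 at 12 h (adjusted p = 0.00436) and fell by 1.35 ± 0.23 at 24 h (adjusted p = 0.000284). The 12 h value was -0.56 without PA replicate 1 and -1.41 without PA replicate 2. It no longer passed when the 4 libraries of that time were fitted alone (-0.93, adjusted p = 0.0683). With that correction MAD2L1 stood at -0.01 at 12 h (adjusted p = 0.973) and -0.39 at 24 h (adjusted p = 0.0196). An antisense gene, AC108866.1, shares 44 exon bases with MAD2L1 and had at most 9 reads.

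CDC20, the target of the checkpoint and the activator of the anaphase promoting complex, passed the test in this fit at 24 h and not before. CDC20 (ENSG00000117399.12) is on chromosome 1 from 43358955 to 43363203, plus strand. At 3 h CDC20 had 175 and 135 CPM in PA libraries, against 122 and 130.1 CPM in DMSO libraries, with both PA libraries above both DMSO libraries and a change of 0.30 ± 0.17 that did not pass (adjusted p = 0.383). At 12 h it had 113 and 81.9 CPM in PA libraries, against 107 and 117 CPM in DMSO libraries, and the groups overlapped (-0.20 ± 0.17, adjusted p = 0.356). At 24 h it had 49.7 and 48.4 CPM in PA libraries, against 97.0 and 118 CPM in DMSO libraries. The PA libraries then stood close together below both DMSO libraries, and CDC20 fell by 1.13 ± 0.18 (adjusted p = 0.000177), or 2.19-fold. PLK1, which acts from mitotic entry to cytokinesis, had nearly the same course. PLK1 (ENSG00000166851.13) is on chromosome 16 from 23677656 to 23690367, plus strand. PLK1 had 198 and 153 CPM in PA libraries, against 129 and 149 CPM in DMSO libraries at 3 h, a change of 0.33 ± 0.17 (adjusted p = 0.332). At 12 h it had 113 and 90.7 CPM in PA libraries, against 111 and 132 CPM in DMSO libraries, with overlap (-0.26 ± 0.17, adjusted p = 0.224). At 24 h it had 44.5 and 51.3 CPM in PA libraries, against 107 and 128 CPM in DMSO libraries, and fell by 1.29 ± 0.17 (adjusted p = 6.41e-05), or 2.45-fold. On the log2(RPKM + 1) scale of the deposited RPKM values, limma called PLK1 lower at 12 h too (-0.39, adjusted p = 0.0453). The median change of all genes on that scale was -0.08 at 12 h and -0.235 at 24 h, against 0.01 and -0.01 in the fit of counts. With the correction for GC content and transcript length, both genes passed at 12 h, at -0.80 for CDC20 (adjusted p = 8.87e-05) and -0.80 for PLK1 (adjusted p = 0.000132). On the opposite strand, the antisense gene AC008870.3 and ERN2 share 156 and 42 exon bases with PLK1, and whether reads were counted by strand is not given in the sources used here.

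AURKA and AURKB differed in the size of their change. AURKA, the spindle pole kinase, and its activator TPX2 were lower from 12 h on, and AURKB, the kinase of the passenger complex, had the smallest change of the 10 at 24 h in this fit. AURKA (ENSG00000087586.16) is on chromosome 20 from 56369389 to 56392337, minus strand, TPX2 (ENSG00000088325.14) is on chromosome 20 from 31739271 to 31801805, plus strand, and AURKB (ENSG00000178999.11) is on chromosome 17 from 8204733 to 8210600, minus strand. At 3 h AURKA had 277 and 272 CPM in PA libraries, against 277 and 266 CPM in DMSO libraries, nearly equal (0.02 ± 0.13, adjusted p = 0.961). At 12 h AURKA had 115 and 144 CPM in PA libraries, against 220.2 and 239.7 CPM in DMSO libraries. At 24 h it had 69.7 and 66.3 CPM in PA libraries, against 225 and 232 CPM in DMSO libraries. The groups were apart at both later times, and AURKA fell by 0.83 ± 0.13 at 12 h (adjusted p = 0.000272) and fell by 1.75 ± 0.13 at 24 h (adjusted p = 1.61e-06), or 3.36-fold. TPX2 had 1284 and 1211 CPM in PA libraries, against 1079.9 and 1200.4 CPM in DMSO libraries at 3 h (0.13 ± 0.11, adjusted p = 0.557). At 12 h TPX2 had 674 and 717 CPM in PA libraries, against 1059 and 1022 CPM in DMSO libraries, and fell by 0.58 ± 0.11 (adjusted p = 0.00114). At 24 h it had 304 and 301 CPM in PA libraries, against 905 and 979.7 CPM in DMSO libraries, and fell by 1.64 ± 0.11 (adjusted p = 1.19e-06), or 3.11-fold. The TPX2 libraries of each group lay close together, and its SE was the smallest of the 10 at all 3 times.

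AURKB had 146 and 124 CPM in PA libraries, against 118 and 121 CPM in DMSO libraries at 3 h (0.17 ± 0.14, adjusted p = 0.548). At 12 h it had 103 and 82.8 CPM in PA libraries, against 91.2 and 102 CPM in DMSO libraries, and the groups overlapped (-0.06 ± 0.14, adjusted p = 0.759). At 24 h AURKB had 83.1 and 94.8 CPM in PA libraries, against 120.4 and 122 CPM in DMSO libraries. The groups were then apart, and AURKB fell by 0.44 ± 0.14 (adjusted p = 0.0187), or 1.36-fold. That call was lost without PA replicate 1 (-0.36, adjusted p = 0.107), without DMSO replicate 1 (-0.45, adjusted p = 0.0694) and without DMSO replicate 2 (-0.44, adjusted p = 0.0739). AURKA reads per AURKB read were 0.84 and 0.70 in PA libraries at 24 h, against 1.87 and 1.91 in DMSO libraries. At 12 h the ratio was 1.12 and 1.73 with PA, against 2.41 and 2.35 with DMSO, and at 3 h it was 1.90 and 2.19 with PA, against 2.33 and 2.19 with DMSO. The ratios of the groups did not overlap at 12 and 24 h, and with 2 libraries a group no test of the ratio was run. The changes lay closer together once corrected for GC content and transcript length: AURKA then stood at -0.76 and AURKB at -0.52 at 12 h, and at -1.62 and -0.91 at 24 h.

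**Figure D3:**
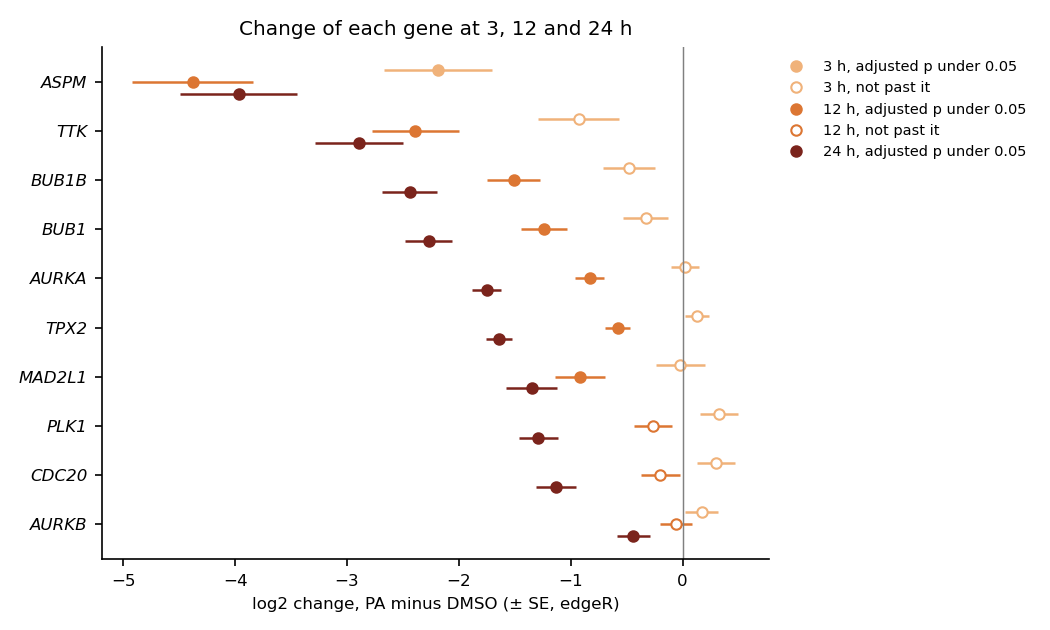
Log2 change of each gene, PA minus DMSO, at 3, 12 and 24 h, with bars of 1 SE from the edgeR fit. Filled points passed an adjusted p of 0.05. ASPM lies farthest to the left, 3 genes (PLK1, CDC20 and AURKB) have open points at 12 h, and all 10 points of 24 h are filled.

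In DMSO alone no change of the 10 genes over the day passed the test in the fit without correction. None of the 10 was called at 3, 12 or 24 h against DMSO at 0 h by edgeR or by DESeq2, while edgeR called 0.0%, 1.46% and 2.46% of all genes. At an unadjusted p under 0.05, edgeR counted 0 of the 10 at 3 h, 1 at 12 h and 2 at 24 h, and DESeq2 counted 0, 1 and 1. Over all genes, edgeR and DESeq2 called 0 at 3 h against 0 h, where edgeR counted 215 at an unadjusted p under 0.05. The log2 changes in DMSO ran from -0.33 for AURKA at 24 h to 0.30 for MAD2L1 at 24 h. AURKA, for instance, had 225 and 232 CPM in DMSO at 24 h, against 293 and 281 CPM at 0 h. Set against DMSO at 0 h in place of the same time, PA libraries gave 1 lower gene at 3 h (ASPM, where 1.41% of all genes were lower), 7 at 12 h (AURKA, BUB1, BUB1B, TTK, MAD2L1, TPX2 and ASPM, where 19.2% were lower) and 10 at 24 h (28.1%). With a correction for GC content and transcript length, given further on, 9 were lower at 12 h, where 18.1% of all genes were, and 9 at 24 h, where 25.3% were. MAD2L1 was the gene not called with it, at -0.17 (adjusted p = 0.312) at 12 h and -0.20 (adjusted p = 0.205) at 24 h. In DMSO alone, AURKA was called lower at 24 h against 0 h with the correction (-0.37, adjusted p = 0.0299, edgeR), where 968 of 15071 genes were lower.

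Whether the effect of PA itself differed between times was tested as a difference of effects. From 3 to 24 h the effect became lower for 8 of the 10 genes, where 6.2% of all genes did so and 14.4% changed either way (edgeR quasi-likelihood test). The difference was largest for TTK (-1.97 ± 0.52, adjusted p = 0.0257), BUB1B (-1.96 ± 0.33, adjusted p = 0.00287) and BUB1 (-1.94 ± 0.29, adjusted p = 0.00139). PLK1, TPX2, AURKA, CDC20 and MAD2L1 also passed, with values from -1.77 for AURKA and TPX2 to -1.32 for MAD2L1. AURKB (-0.61 ± 0.20, adjusted p = 0.0585) and ASPM (-1.78 ± 0.67, adjusted p = 0.0865) did not. Over the shorter steps, AURKA and TPX2 alone passed in this fit. From 3 to 12 h they were the 2 of 10 called, against 0.685% of all genes lower and 2.79% either way, and again from 12 to 24 h, against 0.158% lower and 0.422% either way. With each of the 8 libraries of a step left out in turn, AURKA passed in 2 of 8 cases in either step, and TPX2 in 3 of 8 from 3 to 12 h and 4 of 8 from 12 to 24 h. After the correction for GC content and transcript length 9 of the 10 passed from 3 to 12 h, against 3.48% of all genes lower, and 6 from 12 to 24 h, against 0.876%. A missed threshold in these steps does not show that the other genes held still: CDC20, for example, differed by -0.93 ± 0.24 between 12 and 24 h (adjusted p = 0.163), and PLK1 by -1.04 ± 0.24 (adjusted p = 0.0992).

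The order in which the genes moved ran broadly alongside the base composition of their transcripts, with MAD2L1 and, at 24 h, AURKB as exceptions. The longest transcripts of ASPM, MAD2L1, TTK, BUB1 and BUB1B hold 37.1%, 39.4%, 40.8%, 42.5% and 43.2% G and C, those of AURKA and TPX2 46.6% and 46.8%, and those of AURKB, PLK1 and CDC20 55.6%, 57.3% and 57.9%, where the median of 15071 tested genes was 48.9%. The 3 genes not called at 12 h were thus the 3 with the highest GC content. MAD2L1, with the second lowest, changed by -0.02 at 3 h. At 12 h it stood at -0.92, a smaller fall than that of BUB1 (-1.24) or BUB1B (-1.51). At 24 h it stood at -1.35, a smaller fall than that of AURKA (-1.75) or TPX2 (-1.64). AURKB, with less G and C than PLK1 and CDC20, fell less than both at 24 h (-0.44 against -1.29 and -1.13). Libraries also differed in how levels depended on GC content: the slope of log2 CPM per 10 points of GC was 0.60 and 0.13 in the PA libraries at 12 h and 0.34 and 0.52 in those at 24 h. In PA libraries at 3 h it was 0.17 and 0.03, and in the 8 DMSO libraries it ran from -0.33 to -0.07. The slope was thus positive in every PA library and negative in every DMSO library. Within PA at 12 h, replicate 1 had both the steeper slope and the lower values of ASPM, TTK, BUB1B, BUB1 and MAD2L1. Each library's trend on GC content and transcript length was therefore fitted as an offset and the changes were computed again. Because the slopes went with treatment, a technical trend and an effect of PA linked to GC content cannot be told apart. The offset removes both.

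After that correction 9 of the 10 genes were lower at 12 h, against 17.5% of all genes lower and 40.5% called either way, and all 10 at 24 h, against 21.6% and 49.8%. The gains at 12 h were CDC20 (-0.80, adjusted p = 8.87e-05), PLK1 (-0.80, adjusted p = 0.000132) and AURKB (-0.52, adjusted p = 0.000615). The loss was MAD2L1, which stood at -0.01 (adjusted p = 0.973). AURKA and TPX2, with middling GC content, moved least, to -0.76 and -0.43. ASPM remained the lowest, at -3.24 at 12 h and -2.85 at 24 h, and at 3 h it was the 1 gene of 10 called (-1.66, adjusted p = 0.00308), against 2.47% of all genes lower and 4.51% either way. TTK and BUB1B stood at -1.73 and -1.06 at 12 h. At 24 h the corrected changes of AURKA, PLK1, BUB1, BUB1B, TTK, CDC20 and TPX2 lay between -2.14 (TTK) and -1.40 (TPX2), with AURKB at -0.91 and MAD2L1 at -0.39 (adjusted p = 0.0196). ASPM thus had the largest fall with and without the correction. Whether its fall differed in size from that of another gene was not tested. At 24 h the corrected values were -2.85 ± 0.30 for ASPM and -2.14 ± 0.24 for TTK. The split of PLK1 and CDC20 from the checkpoint kinases at 12 h was narrower with the correction: BUB1 stood at -0.71, next to PLK1 and CDC20.

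**Figure D4:**
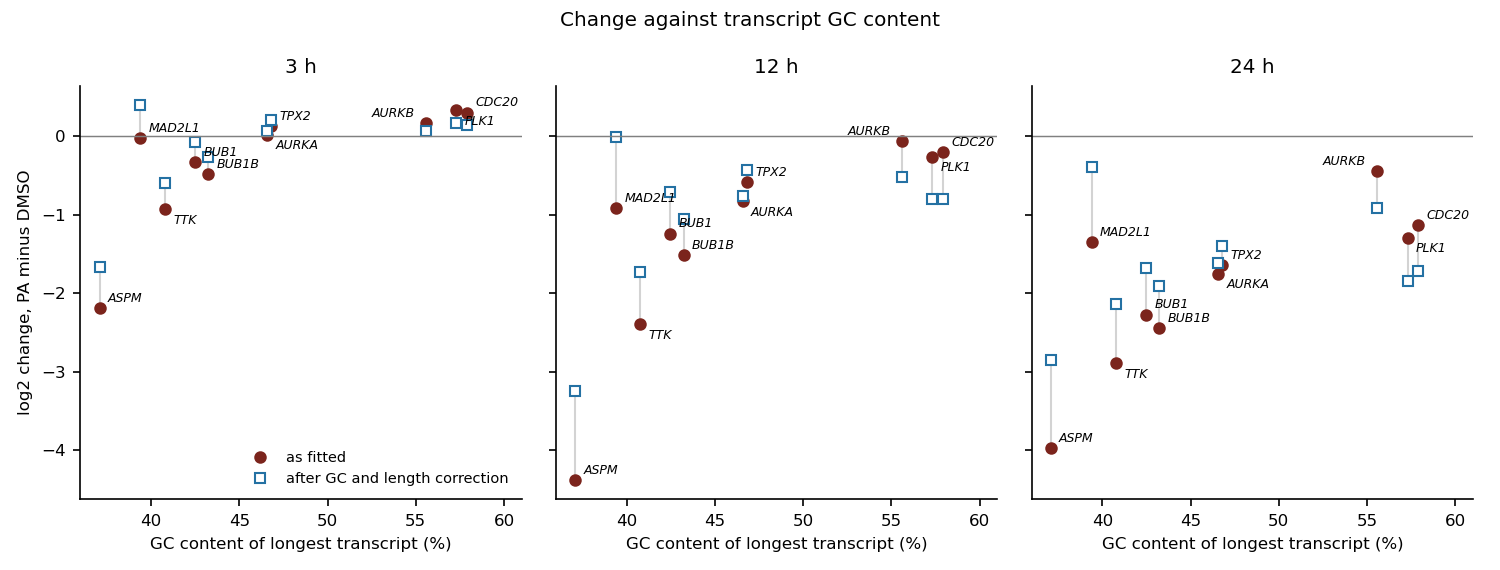
Log2 change, PA minus DMSO, at 3, 12 and 24 h against the GC content of each gene's longest transcript (%), as fitted (filled circles) and after the GC and length correction (open squares), joined by a grey line. At 12 h the 3 genes on the right move down to between -0.80 and -0.52, and MAD2L1 moves up to -0.01.

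Most partners of the Aurora kinases were lower at 12 and 24 h. Of 11 such genes tested, 1 was lower at 3 h, 8 at 12 h and 10 at 24 h, and none was higher, where 1.58%, 24.1% and 27.5% of all genes were lower. Their median log2 change was -0.11, -0.58 and -1.18, while that of all genes was -0.01, 0.01 and -0.01. After the GC and length correction, 1, 9 and 10 were lower, where 2.47%, 17.5% and 21.6% of all genes were. HMMR, a microtubule-binding partner of TPX2, was the 1 gene lower at 3 h, with 45.8 and 79.8 CPM with PA, against 223 and 263 CPM with DMSO (-1.95 ± 0.39, adjusted p = 0.0213). That call was lost without PA replicate 1 (-1.60, adjusted p = 0.443), DMSO replicate 1 (-2.07, adjusted p = 0.0914) or DMSO replicate 2 (-1.83, adjusted p = 0.122). At 12 h HMMR had 8.99 and 23.2 CPM with PA, against 219.8 and 231 CPM with DMSO (-3.81 ± 0.42). NUSAP1, which bundles spindle microtubules, stood at -1.41 ± 0.22 at 12 h and -2.53 ± 0.23 at 24 h. BORA, the cofactor through which AURKA activates PLK1, stood at -1.52 ± 0.25 at 12 h (adjusted p = 0.000459). In the passenger complex of AURKB, BIRC5, the survivin subunit, had 142 and 119 CPM with PA, against 142 and 147 CPM with DMSO at 12 h (-0.15 ± 0.13, adjusted p = 0.363) and 90.6 and 94.2 CPM with PA, against 184 and 201 CPM with DMSO at 24 h (-1.06 ± 0.13, adjusted p = 3.61e-05). CDCA8, the borealin subunit, stood at -0.64 ± 0.11 at 12 h (adjusted p = 0.000651) and -1.53 ± 0.12 at 24 h. INCENP, the scaffold of that complex, which was named after its values were seen, stood at -0.41 ± 0.155 at 12 h (adjusted p = 0.0399) and -0.92 ± 0.157 at 24 h. In the fit without correction CDCA8 and INCENP were thus called lower at 12 h, while BIRC5 (-0.15) and AURKB (-0.06) were not. After the GC and length correction AURKB (-0.52, adjusted p = 0.000615, edgeR) and BIRC5 were called lower at 12 h as well. Whether these falls differed in size from that of AURKB was not tested.

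Of 19 other kinases of mitotic entry with their activators and inhibitors, none passed at 3 h. At 12 h, 12 were lower and 2 higher, and at 24 h 13 were lower and 2 higher, where 24.1% of all genes were lower and 24.4% higher at 12 h, and 27.5% lower and 27.2% higher at 24 h. After the correction 9 were lower and 1 higher at 12 h, where 17.5% and 23.0% of all genes were, and 13 were lower and 1 higher at 24 h, where 21.6% and 28.2% were. The medians were -0.06, -0.65 and -0.98 at 3, 12 and 24 h. CDK1, the kinase that drives entry into mitosis, had 16.4 and 37.1 CPM with PA, against 75.6 and 79.3 CPM with DMSO at 12 h (-1.53 ± 0.27, adjusted p = 0.000698), and stood at -2.21 ± 0.28 at 24 h. Its partner cyclin gene CCNB1 had 586 and 556 CPM with PA, against 457 and 488 CPM with DMSO at 3 h (0.27 ± 0.11, adjusted p = 0.247). CCNB1 stood at -0.46 ± 0.11 at 12 h (adjusted p = 0.00468, and -0.04 with an adjusted p of 0.813 after the correction) and -1.32 ± 0.11 at 24 h. PLK4, the kinase of centriole duplication, stood at -2.21 ± 0.37 at 12 h, and NEK2, which separates centrosomes, at -1.25 ± 0.19 and -2.25 ± 0.19 at 12 and 24 h.

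The checkpoint's other proteins and its kinetochore platform were mostly lower at 12 and 24 h. Of 18 tested (of 19 listed), 1 was lower at 3 h, 12 at 12 h and 13 at 24 h, and 2 were higher at 12 h and 1 at 24 h. Of all genes, 1.58%, 24.1% and 27.5% were lower at these times, and the medians of the 18 were -0.07, -0.88 and -1.17. After the correction 4 were lower at 3 h, 9 at 12 h and 14 at 24 h, and 1 was higher at each of 12 and 24 h, where 2.47%, 17.5% and 21.6% of all genes were lower. TPR, a nuclear pore protein that scaffolds MAD1 and MAD2, was the 1 gene called at 3 h, with 55.0 and 102 CPM with PA, against 329 and 374 CPM with DMSO (-2.16 ± 0.25, adjusted p = 0.000689). It stood at -3.35 ± 0.27 at 12 h. NUF2, a subunit of the NDC80 complex that grips microtubules, had 5.72 and 14.5 CPM with PA, against 91.5 and 98.7 CPM with DMSO at 12 h (-3.23 ± 0.35, adjusted p = 2.36e-05) and stood at -3.58 ± 0.35 at 24 h. TRIP13, the ATPase that reopens MAD2, stood at -1.10 ± 0.12 at 24 h. Of 20 subunits, helpers and substrates of the anaphase promoting complex, 7 were lower and 6 higher at 12 h, where 24.1% and 24.4% of all genes were. At 24 h 10 were lower and 4 higher, where 27.5% and 27.2% were, and the medians were -0.17 and -0.32. The shares at 12 h were near those of all genes. After the correction 3 were lower and 4 higher at 12 h, where 17.5% and 23.0% of all genes were, and 8 lower and 3 higher at 24 h, where 21.6% and 28.2% were. On the log2(RPKM + 1) scale limma called 10 lower and 3 higher at 12 h, where 34.6% and 25.0% of all genes were. The subunit ANAPC15, which helps release the checkpoint complex, was higher at 12 h with 159.6 and 103 CPM with PA, against 47.6 and 67.5 CPM with DMSO (1.19 ± 0.21, adjusted p = 0.000595), and ANAPC11, the RING subunit, stood at 1.01 ± 0.18. Of the regulators and substrates, FBXO5 (EMI1, an inhibitor) stood at -1.93 ± 0.37 at 12 h and -2.58 ± 0.38 at 24 h, PTTG1 (securin) at -0.95 ± 0.14 and ESPL1 (separase) at -1.65 ± 0.23 at 24 h.

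**Figure D5:**
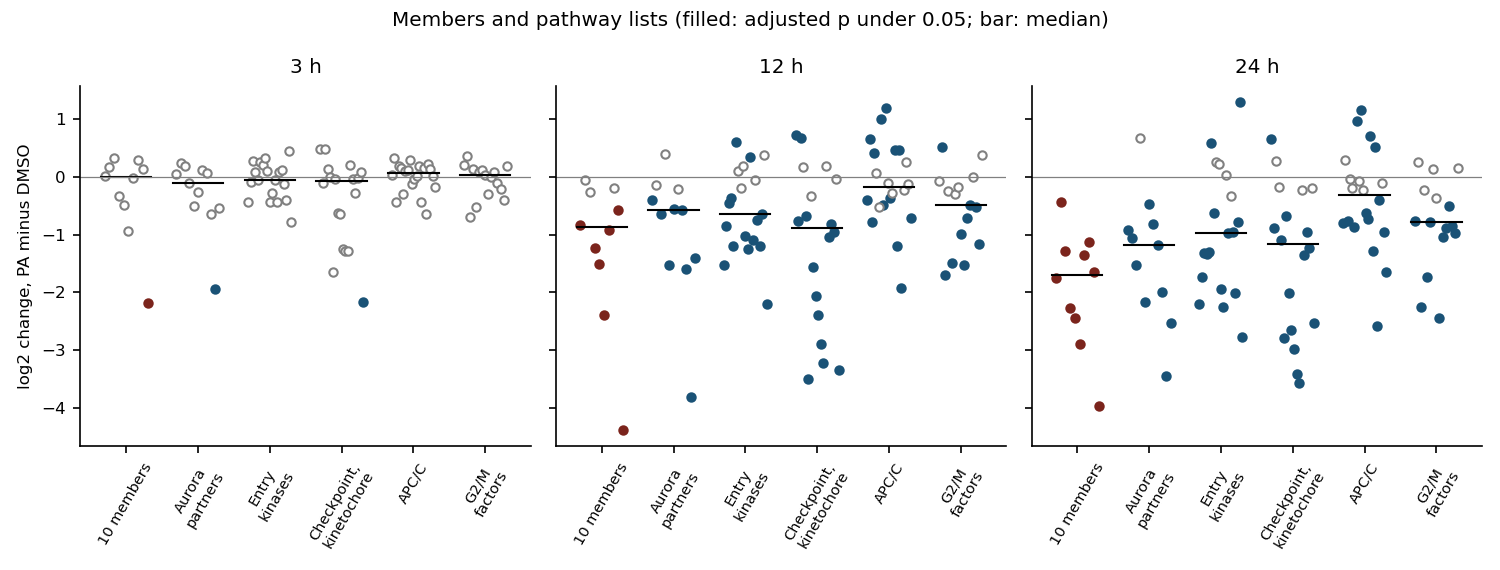
Log2 change, PA minus DMSO, of the 10 genes (dark red) and of each tested gene of 5 pathway lists (blue), at 3, 12 and 24 h. Filled points passed an adjusted p of 0.05, open points did not, and bars are medians; the anaphase promoting complex (APC/C) has the median nearest 0 of the 5 lists at 24 h, at -0.32.

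Of 15 transcription factors and complex subunits that act on G2 and M genes, 8 were lower and 1 higher at 12 h, and 10 were lower and none higher at 24 h, with medians of -0.48 and -0.79. Of all genes, 24.1% were lower and 24.4% higher at 12 h, and 27.5% and 27.2% at 24 h. After the correction 7 were lower and 1 higher at 12 h, and 9 lower and none higher at 24 h, where 17.5% and 21.6% of all genes were lower. FOXM1, an activator of PLK1, AURKB and CDC20, had 82.0 and 65.3 CPM with PA, against 77.4 and 78.4 CPM with DMSO at 12 h (-0.08 ± 0.16, adjusted p = 0.7) and 36.9 and 46.7 CPM with PA, against 64.1 and 78.9 CPM with DMSO at 24 h (-0.77 ± 0.16, adjusted p = 0.00125). After the correction it passed at 12 h too (-0.45, adjusted p = 0.00294), as BIRC5 did (-0.38, adjusted p = 0.00342). MYBL2, which encodes B-MYB, was higher at 12 h with 307 and 197 CPM with PA, against 177 and 175 CPM with DMSO (0.52 ± 0.18, adjusted p = 0.0286), but its direction turned to -0.17 at 12 h and -0.43 at 24 h after the GC and length correction, and at 12 h it stood at 0.17 (adjusted p = 0.44) without PA replicate 1. RBL1 (p107), a repressor subunit of the DREAM complex, stood at -1.53 ± 0.26 at 12 h and -2.45 ± 0.28 at 24 h, and NFYB, a subunit of the CCAAT-binding NF-Y, at -1.16 ± 0.20 at 12 h (adjusted p = 0.000546, and 0.995 after the correction). RBBP4, a subunit of the MuvB core, stood at -0.79 ± 0.13 at 24 h and at 0.01 after the correction.

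How alike the courses were was described by the root mean square difference of log2 CPM over the 14 libraries, each gene centred on its own mean, among 9990 genes. PLK1 and CDC20 were each the nearest gene to the other, at 0.09 on the log2 scale, and FOXM1 was the nearest gene to CDC20 outside the 10, at 0.14. BUB1 and BUB1B lay 0.15 apart, with NEK2 nearest to BUB1 outside the 10 (0.11) and MCM8 nearest to BUB1B (0.15). AURKA and TPX2 lay 0.16 apart, and the mitotic kinesins KIF4A (0.10 from AURKA) and KIF20A (0.07 from TPX2) were nearer still. AURKB had CDC20 as the nearest of the other 9, at 0.36, and 3634 of the 9990 genes were nearer. Its nearest gene was the chromokinesin KIF22 at 0.08. ASPM was nearest to SGOL2, a guardian of centromere cohesion, at 0.14, and to TTK among the 10 at 0.80. TTK was nearest to the condensin gene NCAPG at 0.14, and to BUB1B among the 10 at 0.46. MAD2L1 was nearest to TEX30 at 0.12, and to AURKA among the 10 at 0.37, with 2002 genes nearer than AURKA. ASPM, TTK and MAD2L1 thus lay farther from their nearest member than AURKB did. Their median distance to all genes was also larger, at 1.99 for ASPM, 1.27 for TTK and 0.58 for MAD2L1, against 0.41 for AURKB. By the count of nearer genes the order was another. For ASPM 65 genes were nearer than TTK, and for TTK 184 were nearer than BUB1B, fewer than for MAD2L1 or AURKB. These courses share libraries, depth and the GC slopes above, and the values are a description without a test.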

How the data were processed

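Total RNA of PANC-1 cells was sequenced as paired reads, per the labels' protocols. The authors deposited counts (whole reads for each gene, not normalised), and the deposited RPKM values were scaled by the authors to gene length and library total. The submitters' processing notes name TopHat2, edgeR and GRCh38. The sources used here do not give the counting tool, the strand setting or the gene lengths. Of the lines of counts, 8163 held an extra empty field, which was skipped.

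Counts were fitted in R 4.3.3 with edgeR 4.0.16 (TMM, filterByExpr by group, 15181 genes, 1 mean per group over 14 libraries, 7 residual degrees of freedom). Quasi-likelihood tests were two-sided, with Benjamini-Hochberg adjustment over all genes and a threshold of 0.05. The biological coefficient of variation was 15.1%. The SE of a log2 change is |log2 change| / √F. CPM are TMM-normalised.

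Alternatives were DESeq2 1.42.0, its size factors, other filters, the 4 libraries of a time alone, limma 3.58.1 on log2 RPKM with a pseudocount of 1 or 0.1 (RPKM of at least 1 in 2 libraries), a replicate block, leaving out each library, and an offset for each library's trend on GC content and log2 length (natural splines, 5 degrees of freedom) of the longest basic transcript in GENCODE 29, known for 99.3% of tested genes. The edgeR script was tested on simulated data.

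All 10 genes were named in every comparison. Of each pathway list the text names up to 3 genes with the smallest p per time, plus FOXM1, MYBL2, CDK1, CCNB1 and BIRC5. INCENP, and CDCA8 at 12 h, were named outside this rule. Likeness used genes with a mean of at least 5 CPM. PMF1 and LIN37 were not analysed here, and 1 leukocyte marker is not reported here. The genes, lists and tests were chosen with earlier results of these data known.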

Additional observations from a re-analysis of the deposited data

Results flagged for a closer look

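In 12 instances the effect of PA on a gene differed between times by the test of the difference itself (edgeR quasi-likelihood test, all 14 libraries). All 12 differences were towards a stronger fall at the later time. Between 3 and 24 h the difference held when each of the 8 libraries involved was left out in turn for AURKA (-1.77 ± 0.18, adjusted p = 0.00015), TPX2 (-1.77 ± 0.16, adjusted p = 0.000101), PLK1 (-1.63 ± 0.24, adjusted p = 0.00144), BUB1 (-1.94 ± 0.29, adjusted p = 0.00139), BUB1B (-1.96 ± 0.33, adjusted p = 0.00287) and CDC20 (-1.42 ± 0.25, adjusted p = 0.00333). For TTK it was -1.97 ± 0.52, adjusted p = 0.0257, and it passed in 3 of the 8 leave-outs, with values of -2.32 to -1.67. It was lost without PA 3 h replicate 2, DMSO 3 h replicate 1, PA 24 h replicate 2, or either DMSO 24 h library. For MAD2L1 it was -1.32 ± 0.31, adjusted p = 0.0156, and it passed in 3 of the 8 leave-outs, with values of -1.56 to -1.12. It was lost without PA 3 h replicate 2, DMSO 3 h replicate 1, PA 24 h replicate 2, or either DMSO 24 h library. Between 3 and 12 h the difference was -0.85 ± 0.18, adjusted p = 0.0251 for AURKA and -0.71 ± 0.16, adjusted p = 0.0316 for TPX2. The call of AURKA was lost without any 1 library of PA 3 h, DMSO 3 h or DMSO 12 h (2 of 8 leave-outs passed, values of -1.02 to -0.70), and that of TPX2 without PA 3 h replicate 1 or 2, DMSO 3 h replicate 1, or either DMSO 12 h library (3 of 8 passed, -0.79 to -0.64). Between 12 and 24 h it was -0.92 ± 0.18, adjusted p = 0.0463 for AURKA and -1.06 ± 0.16, adjusted p = 0.0128 for TPX2. The call of AURKA was lost without any 1 library of DMSO 12 h, PA 24 h or DMSO 24 h (2 of 8 passed, -1.07 to -0.75), as it was with the replicate block (-0.92, adjusted p = 0.0856), with DESeq2 size factors (-0.90, adjusted p = 0.0572) and with limma without an RPKM filter (-1.06, adjusted p = 0.0505), and that of TPX2 without any 1 of the DMSO libraries of these times (4 of 8 passed). Adjusted p-values over the leave-outs ran from 0.00039 to 0.232 for the shorter steps. No difference here turned its direction.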

How the results depend on the processing

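Of the 10 genes, 7 were lower at 12 h without each library in turn (lowest and highest 7), 9 to 10 at 24 h, and 0 at 3 h, where the 1 call of ASPM was also lost with limma at a pseudocount of 0.1 and without an RPKM filter (0 in each). At 3 h, 2 genes were called without an expression filter and with the 4 libraries alone, TTK being the second. Over all genes at 3 h, the count was 261 in the fit reported, 582 by DESeq2, 1115 without a filter, 679 with the GC and length correction, 534 with that and the replicate block, 116 with limma at a pseudocount of 0.1, 116 without an RPKM filter, 1182 with the 4 libraries alone, and 29 to 178 with a library left out. At 12 h it was 7363, 3618 with the 4 libraries alone and 4500 to 8677 with a library left out, and at 24 h 6139 to 7538. The difference between 3 and 12 h was called for 2 of the 10 genes, for 4 by DESeq2, 7 without a filter, 9 with the correction, 9 with the correction and the block, and 0 to 7 with a library left out. That between 12 and 24 h was called for 2 genes, for 4 by DESeq2, 1 with DESeq2 size factors, 6 without a filter, 1 with the replicate block alone, 6 with the correction, 5 with the correction and the block, 4 with limma at either pseudocount, 1 without an RPKM filter, and 0 to 5 with a library left out. That between 3 and 24 h was called for 8 genes and for 6 to 9 with a library left out. In DMSO at 24 h against 0 h, 0 genes were called, and 1 with the correction, with or without the block (AURKA, -0.37 and -0.38). For PA at 3 h against DMSO at 0 h, 1 gene was called, 2 without a filter, 0 with limma at a pseudocount of 0.1 or without an RPKM filter, and 0 with any library left out. At 12 h against DMSO at 0 h, 6 to 9 were called with a library left out, and at 24 h 9 to 10. With the correction, with or without the block, MYBL2 turned to -0.17 at 12 h and -0.43 at 24 h and RBBP4 to 0.01 at 24 h. The cause of these changes was not tested.

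Libraries with the same replicate number did not deviate together, since 2 of 21 correlations between groups were over 0.1 (lowest -0.218, highest 0.244). The replicate block changed no call of the 10 genes at 3, 12 or 24 h. With 2 libraries a group, 1 library can decide a call, as for ASPM at 3 h and AURKB at 24 h.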
